A study of Astyanax mexicanus with 26 samples.

Results

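The enhancer-like regions of surface fish only are 5945 stretches of liver chromatin that carried an H3K27ac peak in surface *Astyanax mexicanus* and in neither Pachón nor Tinaja cave fish. When H3K27ac peaks that overlapped or touched were joined across morphs, 140810 regions resulted. Regions were selected on the presence or absence of listed peaks: a surface peak and no cave peak of H3K27ac, and no H3K4me3 or H3K27me3 peak of any morph. The name enhancer-like rests on this combination of marks alone, since no other enhancer mark was profiled.

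The groups were adult livers of the river-dwelling surface morph, set against adult livers of the Pachón cave and Tinaja cave morphs, with no treatment named in the labels. For H3K27ac and for H3K4me3 there were 2 libraries of surface, 2 of Pachón and 3 of Tinaja, and for H3K27me3 there were 2 of each morph. The authors deposited 1 peak list for each morph and mark, which pools its libraries. The labels state neither sex, nor age beyond adult, nor how many fish a library represents.

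H3K27ac is placed on histone H3 by the acetyltransferases p300 and CBP and marks promoters and enhancers in use. H3K4me3 is concentrated at active promoters, and H3K27me3 is laid down by the Polycomb repressive complex at silenced genes, so H3K27ac without either of them is the usual chromatin sign of an active enhancer away from promoters. In liver such elements surround genes of lipid, sugar and bile acid metabolism, and cave morphs of this species are known for fat storage and resistance to starvation.

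No comparison between morphs could be tested, because a pooled list has no spread between replicates and regions of 1 list are not replicates. Intervals below are exact binomial 95% intervals unless named otherwise, and they cover counting error only. The lists hold no depth and no peak height, and their score column is 0 throughout. The H3K27ac list of surface was the shortest, with 70089 peaks, against 93527 in Pachón and 117125 in Tinaja. Absence of a cave peak therefore means absence from a list. Positions are printed 1-based, and no label or header names their genome build. The gene table at hand belongs to another assembly, so no gene is named and no sequence is printed.

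Most H3K27ac regions found in surface fish alone had neither of the other marks. Surface alone held 7659 H3K27ac regions, which is 5.44% of all merged H3K27ac regions and is the contrast the choice was made on. Of these, 5945 (77.6%, interval 76.7 to 78.6) were free of H3K4me3 and H3K27me3 in every morph. H3K4me3 removed 1401 of the others and H3K27me3 removed 729, with 416 removed by both. The H3K4me3 that excluded a region was mostly that of surface itself, at 1055 regions, against 412 that met a Pachón and 717 that met a Tinaja peak. H3K27me3 of surface was met by 577 of the 7659, that of Pachón by 354 and that of Tinaja by 296.

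The same rule applied to each cave morph gave 9430 enhancer-like regions of Pachón only and 10677 of Tinaja only. These were 70.0% (69.3 to 70.8) of the H3K27ac regions of Pachón alone and 28.1% (27.7 to 28.6) of those of Tinaja alone. The H3K4me3 lists, whose peaks exclude a region, held 136219 peaks in Tinaja, 64432 in Pachón and 56323 in surface. These lengths were not corrected for. Both caves without surface held 8165 enhancer-like regions (37.4% of the H3K27ac regions of that class), and all 3 morphs together held 14672 (29.3%). Surface and Pachón without Tinaja held 3631 (75.4%), and surface and Tinaja without Pachón held 2257 (45.6%). Shares of 70.0% or more were thus those of the classes without a Tinaja peak, so a high share was not particular to surface alone. The order of the single-morph counts turned under one alternative. When the lists of each mark were cut to the length of the shortest by leaving out the narrowest peaks, which removed peaks from the cave lists of all 3 marks and none from those of surface, surface held 12172 such regions, against 6526 in Pachón and 4031 in Tinaja. Fewer listed peaks, the loss of narrow ones and the shorter lists of the other marks cannot be told apart in this alternative, and the number of regions is no measure of how many enhancers one morph has over another.

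The enhancer-like regions of surface fish were narrow, which the choice itself favoured, since a wider peak has more bases that can meet an excluding peak. Each consisted of exactly 1 peak, which was fixed beforehand because peaks within the surface list neither overlapped nor touched. The regions had a median width of 336 bp, quartiles of 281 and 421 bp and a range from 200 to 1507 bp. The median peak of the whole surface H3K27ac list was 511 bp wide, and enhancer-like regions of all 3 morphs had a median of 603 bp, though those join up to several peaks. The regions made up 8.48% of surface H3K27ac peaks and 5.08% of the length those peaks cover. Regions of Pachón only and of Tinaja only were as narrow, with medians of 319 and 311 bp.

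The share of peaks that were enhancer-like and specific to surface fell steadily with peak width. A peak was left out when 1 bp of its region met a cave H3K27ac peak or any H3K4me3 or H3K27me3 peak. A fall with width is therefore built into the choice in part, and how much of it came from this was not tested. In the narrowest decile of the surface list, from 200 to 296 bp, 1918 of 6905 peaks were such regions (27.8%, 26.7 to 28.8). In the decile just below the median, from 448 to 511 bp, 488 of 6956 peaks were (7.02%). In the widest decile, from 1083 bp, 24 of 7013 peaks were (0.34%, 0.22 to 0.51). The Pachón list gave 33.0% in its narrowest and 0.33% in its widest decile for regions of Pachón only, so the slope was not peculiar to the surface list. Surface stood below both cave lists in the narrowest 2 deciles, at 17.3% in the wider of these, against 22.2% in Pachón and 21.0% in Tinaja.

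**Figure D1:**
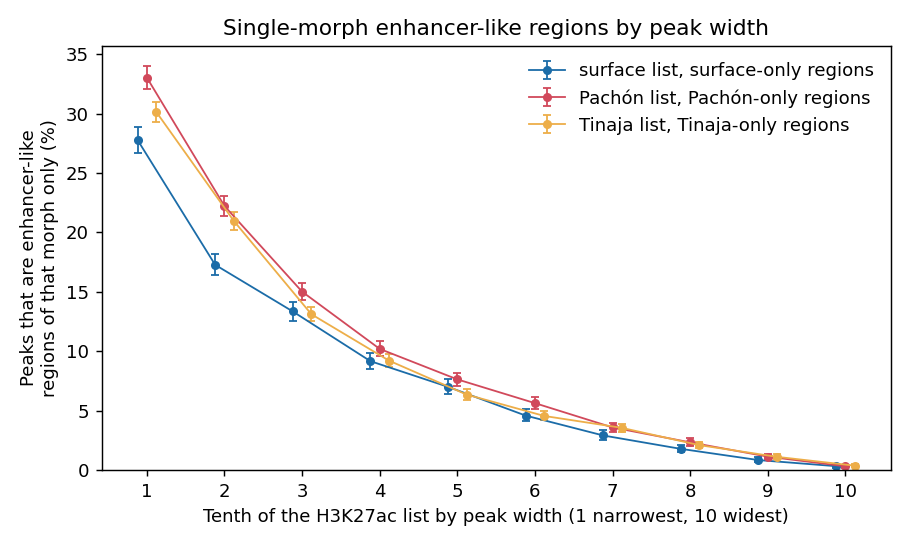
Share of the H3K27ac peaks of each morph that were enhancer-like regions of that morph only (%, vertical axis) by decile of peak width in its list (horizontal axis). Points are shares and bars exact binomial 95% intervals. The surface share was 27.8% in the narrowest decile and 0.34% in the widest. The choice itself favoured narrow peaks.

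Wide peaks nevertheless occurred among them. A width of 511 bp or more was reached by 738 regions (12.4%), while 5207 were narrower. The wider regions' median distance to a cave H3K27ac peak was 1242 bp, against 1084 bp for the narrower regions, and 42.4% (38.8 to 46.1) against 47.2% (45.9 to 48.6) had one within 1 kb. Their median distance to a surface H3K4me3 peak was 4827 bp, against 4472 bp.

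The 5 widest on placed chromosomes differed in their surroundings. The widest, on chromosome 24 from 36735121 to 36736627, spanned 1507 bp and lay 3715 bp from the nearest Pachón and 11223 bp from the nearest Tinaja H3K27ac peak. No H3K4me3 or H3K27me3 peak of any morph came closer to it than 11178 bp. The next, on chromosome 1 from 24600154 to 24601654, spanned 1501 bp and lay 20064 bp from Pachón and 3024 bp from Tinaja H3K27ac. Another, on chromosome 19 from 11086973 to 11088285, spanned 1313 bp and had no cave H3K27ac within 25 kb, the closest peaks being 32619 bp away in Pachón and 32348 bp away in Tinaja. It had another surface H3K27ac peak 555 bp away and an H3K27me3 peak 413 bp away.

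The remaining pair lay beside H3K27ac of the caves. The region on chromosome 22 from 3584951 to 3586392 (1442 bp) was 163 bp from a Tinaja peak, 226 bp from a Pachón peak and 68 bp from the next surface peak, with H3K4me3 at 378 bp. That on chromosome 7 from 27360300 to 27361600 (1301 bp) was 863 bp from Pachón, 862 bp from Tinaja and 858 bp from another surface peak. The widest regions of the set thus lay at very different distances from the nearest cave H3K27ac peak, between 163 and 32348 bp.

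Close neighbourhood to cave H3K27ac was common. The nearest H3K27ac peak of either cave lay at a median of 1105 bp, and 2772 of the 5945 regions (46.6%, 45.4 to 47.9) had one within 1 kb. Pachón peaks lay at a median of 1486 bp and Tinaja peaks at 1341 bp, the Tinaja list being the longer. At the far end, 127 regions (2.14%) had no cave H3K27ac peak within 25 kb, and another 11 were on unplaced scaffolds that carried none. For regions of Pachón only the nearest H3K27ac of surface or Tinaja lay at a median of 1445 bp, with 37.6% within 1 kb. For regions of Tinaja only the values were 2137 bp and 30.3%. The partner lists differ in length between these comparisons, which was not corrected for.

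**Figure D2:**
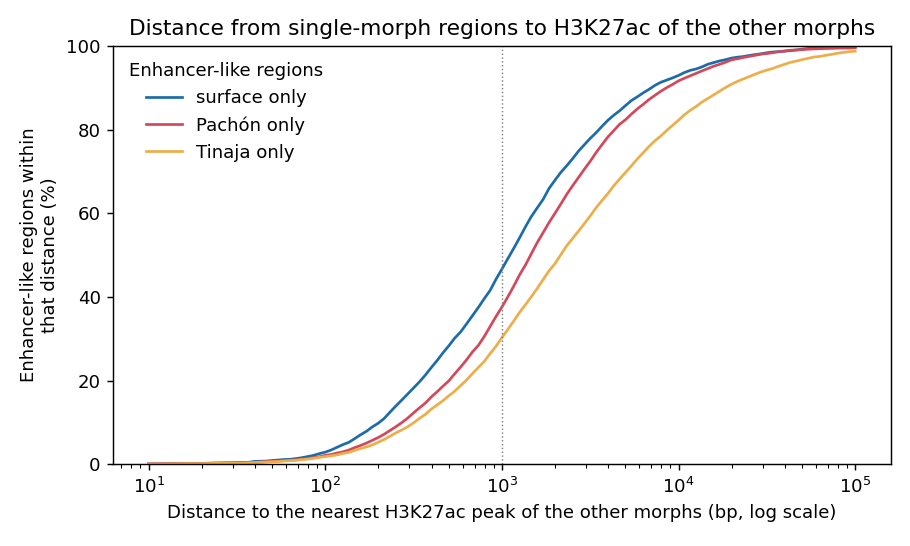
Cumulative share of single-morph enhancer-like regions (%, vertical axis) by distance to the nearest H3K27ac peak of the other 2 morphs (bp, log scale). The dotted line marks 1 kb, within which lay 46.6% of regions of surface only, 37.6% of Pachón only and 30.3% of Tinaja only.

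The choice of regions turned on single bases at its edge. The regions just inside it lay 1 bp (on an unplaced scaffold, 336 bp wide), 3 bp (chromosome 1 from 978128 to 978488) and 5 bp (chromosome 2 from 25066982 to 25067394) from a cave peak. Just outside it, surface peaks overlapped cave peaks by 1 bp (in a region on chromosome 18 from 5981042 to 5981769), 10 bp (chromosome 19 from 29153178 to 29154203) and 11 bp (chromosome 25 from 15679524 to 15680691). Within 100 bp of a cave peak lay 172 of the chosen regions, while 20 of 20560 enhancer-like regions with peaks in surface and a cave overlapped by 100 bp or less.

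Next to H3K27ac of other classes, the enhancer-like regions of surface fish lay next to surface peaks more often, and next to peaks of the caves alone less often, than those classes' shares of all regions. The nearest other H3K27ac region was one of all 3 morphs for 2484 of 5939 regions (41.8%, 40.6 to 43.1), while such regions made up 35.6% of all merged H3K27ac regions. It was another region of surface alone for 18.2% (17.2 to 19.2), a class that made up 5.44%. It was a region of both caves only for 6.70% (6.08 to 7.37), a class that made up 15.5%, and one of Tinaja alone for 14.5%, a class that made up 26.97%. For regions of Pachón only, the nearest region was of surface alone in 3.01% of Pachón alone in 21.1% (a class that made up 9.56%) and of both caves only in 21.2%. For regions of Tinaja only it was of Tinaja alone in 34.3%. Each of the 3 single-morph classes thus had a region of its own morph alone nearest more often than that morph's share of all regions. The neighbours come from the same H3K27ac lists from which the regions were chosen, so these shares are not independent of the choice.

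Promoter marks were nearer than Polycomb marks. The nearest surface H3K4me3 peak lay at a median of 4520 bp from the enhancer-like regions of surface fish, and that of surface H3K27me3 at 10739 bp. Within 1 kb of a surface H3K4me3 peak lay 819 of them (13.8%), of a Pachón one 748 (12.6%) and of a Tinaja one 1439 (24.2%). The H3K4me3 list of Tinaja is the longest. An H3K4me3 peak of any morph lay within 1 kb of 1631 (27.4%, 26.3 to 28.6), although none overlapped. For regions of Pachón only this share was 20.5%, and for those of Tinaja only 23.0%. Within 1 kb of H3K27me3 of any morph lay 471 (7.92%, 7.25 to 8.64). Regions of Pachón only lay at medians of 6462 bp from Pachón H3K4me3 and 8555 bp from Pachón H3K27me3. Those of Tinaja only lay at 2582 bp from Tinaja H3K4me3 and 9819 bp from Tinaja H3K27me3. Measured to the lists of its own morph, the order of the marks was thus the same in each single-morph class. Measured to the surface lists it was reversed for regions of Pachón only, at 7605 bp for H3K4me3 and 7138 bp for H3K27me3. The lists of the marks differ in length, which was not corrected for.

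H3K27ac regions shared by all morphs were more often broadest in surface fish when they lay near an enhancer-like region of surface fish. For each shared region the length covered by the peaks of each morph was compared. Of 7372 shared regions within 5 kb, 2937 were covered longest in surface (39.8%, 38.7 to 41.0), 1455 in Pachón (19.7%) and 2935 in Tinaja (39.8%). Of 42718 shared regions farther away, 22.3% (21.9 to 22.7) were covered longest in surface, 27.7% in Pachón and 49.5% in Tinaja. Over all 50090 shared regions, surface was longest in 24.8%. The median coverage within 5 kb was 641 bp in surface, 590 bp in Pachón and 626 bp in Tinaja, and farther away it was 596, 634 and 670 bp in the same order. The median log2 ratio of surface to the mean of the caves was 0.03 near and -0.09 farther away, so the typical difference in length was small.

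That share declined with distance. It was 47.9% (45.8 to 50.1) within 1 kb, 41.6% from 1 to 2 kb, 34.5% from 2 to 5 kb, 31.0% from 5 to 10 kb, 26.2% from 10 to 25 kb, 22.9% from 25 to 50 kb and 19.2% (18.6 to 19.7) beyond 50 kb. It rose with the number of surface-only enhancer-like regions within 5 kb, being 22.3% with 0, 37.6% with 1, 48.9% with 2 and 58.0% (51.5 to 64.3) with 3 or more, the last over 243 shared regions. Near enhancer-like regions of Pachón only, surface was longest in 21.8% of shared H3K27ac regions and Pachón in 35.9%. Near those of Tinaja only, surface was longest in 23.9% and Tinaja in 54.3%, and near those of all morphs surface was longest in 26.9%. The values describe the same H3K27ac lists from which the regions were chosen and are no independent evidence of a difference between morphs.

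H3K4me3, whose lists the choice used to leave regions out, differed in the same direction within 5 kb, to a lesser extent. The values below are therefore not independent of the choice. Of 2902 H3K4me3 regions of all morphs within 5 kb, 510 were covered longest in surface (17.6%, 16.2 to 19.0), against 11.6% (11.2 to 11.9) of those farther away and 12% of all shared H3K4me3 regions. Near enhancer-like regions of all morphs it was 14.9% (14.0 to 15.8), near those of Tinaja only 12.6% and near those of Pachón only 10.55%. By distance from the surface-only regions the share did not fall steadily up to 10 kb. It was 18.6% within 1 kb, 16.3% from 1 to 2 kb, 17.7% from 2 to 5 kb and 16.8% from 5 to 10 kb. Beyond 50 kb it was 10.7%. By number within 5 kb it was 17.0% with 1 such region, 21.4% with 2 and 21.0% (11.7 to 33.2) with 3 or more. Regions with H3K4me3 in surface alone made up 549 of 8909 H3K4me3 regions within 5 kb (6.16%, 5.67 to 6.68), against 3.74% farther away and 3.89% in all. Near regions of Pachón only they made up 3.74% (3.39 to 4.11), and near enhancer-like regions of all morphs 4.53% (4.23 to 4.84). Regions with H3K4me3 in both caves only were fewer near the surface-only regions, at 9.54% (8.94 to 10.2), against 12.1% farther away and 11.9% in all. That share was also low near enhancer-like regions of all morphs, at 10.1% (9.70 to 10.6), and of Tinaja only, at 10.1% (9.58 to 10.6), so it was not particular to the surface-only regions. In the labels, surface H3K27ac and H3K4me3 share their library numbers and their total chromatin background, and the caves have other ones. A property of the liver and a property of those libraries cannot be told apart.

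The H3K27me3 libraries of all morphs carry the same number in the labels, and it is not one of those of the other marks. Their lists were also used in the choice. For H3K27me3 the share differed by less than the counting error. Of 1032 shared H3K27me3 regions within 5 kb, 33.4% (30.6 to 36.4) were covered longest in surface, against 32.3% farther away and 32.3% in all. With lists cut to equal length the difference was 2.91 percentage points (0.72 to 5.11), which lay above 0. H3K27me3 in both caves only made up 9.89% (8.88 to 10.98) of the 3194 H3K27me3 regions within 5 kb, against 9.98% of all H3K27me3 regions. This share was lower near other classes of enhancer-like regions, at 7.54% (6.93 to 8.19) near Pachón only, 8.32% (7.60 to 9.07) near both caves only and 8.18% (7.53 to 8.87) near all morphs, and was 9.25% (8.59 to 9.94) near Tinaja only. H3K27me3 in surface alone made up 17.7% (16.4 to 19.1) near the surface-only regions, against 13.7% of all H3K27me3 regions. It was 17.3% near regions of Pachón only and 19.1% near enhancer-like regions of all morphs, so this excess was found around each of these classes.

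**Figure D3:**
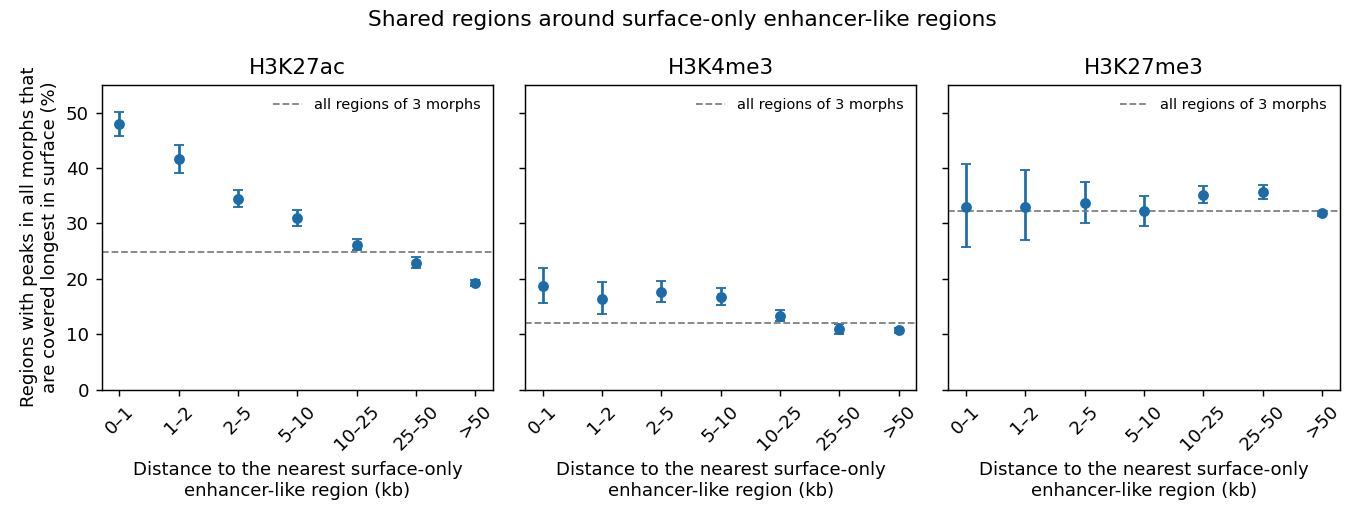
Share of regions with a peak in all 3 morphs that were covered over the longest length in surface fish (%, vertical axis), by distance to the nearest surface-only enhancer-like region (kb), for H3K27ac, H3K4me3 and H3K27me3. Bars are exact binomial 95% intervals, and dashed lines are all shared regions of the mark (24.8%, 12% and 32.3%). The H3K27ac share was 47.9% within 1 kb and 19.2% beyond 50 kb.

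Another enhancer-like region of surface fish lay within 10 kb for 2364 of 5945 (39.8%, 38.5 to 41.0). This share depended on the processing, at 16.1% with peaks up to 1 kb apart merged, 23.2% with the wider 50% of every list and 56.1% with lists of equal length. Chaining at 10 kb gave 3581 single regions and 934 clusters of 2 or more, of which 49 held 5 or more and together 297 regions. Regions of Pachón only had a neighbour of their class within 10 kb in 42.9%, those of Tinaja only in 36.4% and those of all morphs in 67.0%, from larger numbers of regions.

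The 5 largest clusters on placed chromosomes were on chromosomes 10, 7 and 11, and 3 of them were on chromosome 7. The largest, on chromosome 10 from 19258138 to 19304706, held 11 surface-only enhancer-like regions of 269 to 709 bp among 23 H3K27ac regions. Surface had 22 H3K27ac peaks in this stretch, Pachón 6 and Tinaja 13, and these peaks took up 25.6% (surface), 7.01% (Pachón) and 14.5% (Tinaja) of its length. H3K27me3 was similar in the morphs there, with 5 surface peaks, against 4 of each cave. H3K4me3 peaks there numbered 4 in surface, 2 in Pachón and 10 in Tinaja. Tinaja, whose H3K4me3 list is the longest, had the most H3K4me3 peaks in each of the 5 clusters. In its 6 shared H3K27ac regions, coverage summed to 3605 bp in surface, 3265 bp in Pachón and 3821 bp in Tinaja, and 2 of the 6 were longest in surface.

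A cluster on chromosome 7, from 15324375 to 15363379, held 10 such regions, 9 regions of all morphs and no H3K27me3 peak of any morph. The part of it under H3K27ac peaks was 41.9% for surface, 16.4% for Pachón and 27.2% for Tinaja. Within its 9 shared regions alone, coverage summed to 10790 bp in surface, 6384 bp in Pachón and 9731 bp in Tinaja. Of the 9, 6 were longest in surface. They come from the same H3K27ac lists by which the cluster was chosen. A second cluster followed after 108408 bp, from 15471788 to 15505737, with 9 surface-only enhancer-like regions. Under H3K27ac peaks lay 25.7% of this second stretch for surface, 3.53% for Pachón and 11.1% for Tinaja, and H3K27me3 was again absent from the lists. Its single shared region was covered over 4421 bp in surface, 1199 bp in Pachón and 2773 bp in Tinaja. From the start of the first to the end of the second, 27 of 83 H3K27ac regions were surface-only enhancer-like regions, a class that made up 4.22% of all H3K27ac regions. Of the same 83, 22 were of all morphs, 13 of Tinaja alone, 1 of both caves only and 0 of Pachón alone. Over all H3K27ac regions, those of Tinaja alone made up 26.97%, those of both caves only 15.5% and those of Pachón alone 9.56%. This stretch was bounded by clusters chosen for their number of surface-only regions. Its high share of them was fixed by that choice, and its other shares depend on it.

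The 2 other large clusters behaved less alike. On chromosome 7 from 32171102 to 32199096, 9 surface-only enhancer-like regions stood among 16 H3K27ac regions. Its 4 shared regions were shorter in surface, at 2310 bp in sum, against 2520 bp in Pachón and 2775 bp in Tinaja. On chromosome 11 from 4321042 to 4338993, 9 stood among 15 within 17952 bp, and H3K27ac peaks took up 40.3% (surface), 7.42% (Pachón) and 12.3% (Tinaja). The single shared region of that stretch was covered over 1575 bp in surface, 764 bp in Pachón and 996 bp in Tinaja. Over the 21 shared regions of all 5 clusters, 11 were longest in surface, while surface was longest in 24.8% of all shared H3K27ac regions. Choosing clusters for surface-only peaks favours surface coverage over whole clusters. How much of the excess came from this was not tested.

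**Figure D4:**
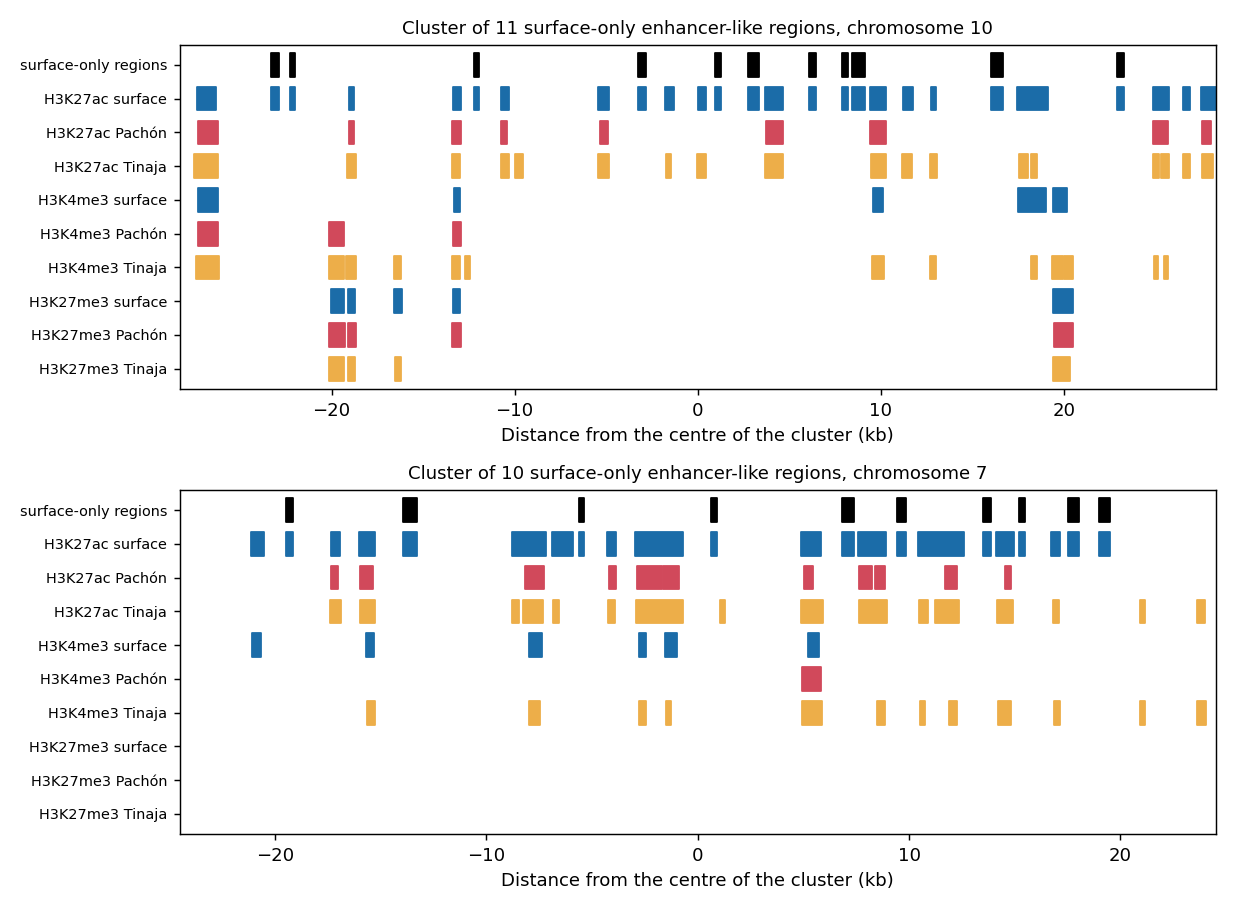
Peaks of each mark and morph (coloured bars) and surface-only enhancer-like regions (black bars) in the 2 largest clusters on placed chromosomes, by distance from the cluster centre (kb). The upper cluster holds 11 and the lower 10 of these regions. Surface has 22 H3K27ac peaks in the upper and 21 in the lower cluster, against 6 and 11 of Pachón and 13 and 14 of Tinaja.

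All placed chromosomes carried enhancer-like regions of surface fish, and the binomial intervals of the lowest and the highest share did not overlap. They numbered 4613 on the 25 placed chromosomes (77.6%) and 1332 on 371 unplaced scaffolds. As a share of H3K27ac regions they were 4.22% overall and had a median of 4.35% over chromosomes, from 3.42% on chromosome 2 (2.85 to 4.07) to 6.56% on chromosome 11 (5.32 to 7.98). The interval lay above the overall share on 6 chromosomes and below it on 3. The overall share includes the unplaced scaffolds, whose own share was 3.68%, so that of the placed chromosomes together was higher. Both counts depend on this reference. The intervals treat regions as independent, although 39.8% of the set had another of its regions within 10 kb. No allowance was made for this or for picking the lowest and the highest of 25 chromosomes. Chromosome 11 held 92 among 1403 H3K27ac regions, and without its largest cluster the share was 5.95%. On the same chromosome, regions of Pachón only made up 5.42%, the lowest share of any placed chromosome for that class. Chromosome 10 followed with 233 of 4113 (5.66%, 4.98 to 6.42), and there Pachón-only regions stood highest of all placed chromosomes, at 8.92%.

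**Figure D5:**
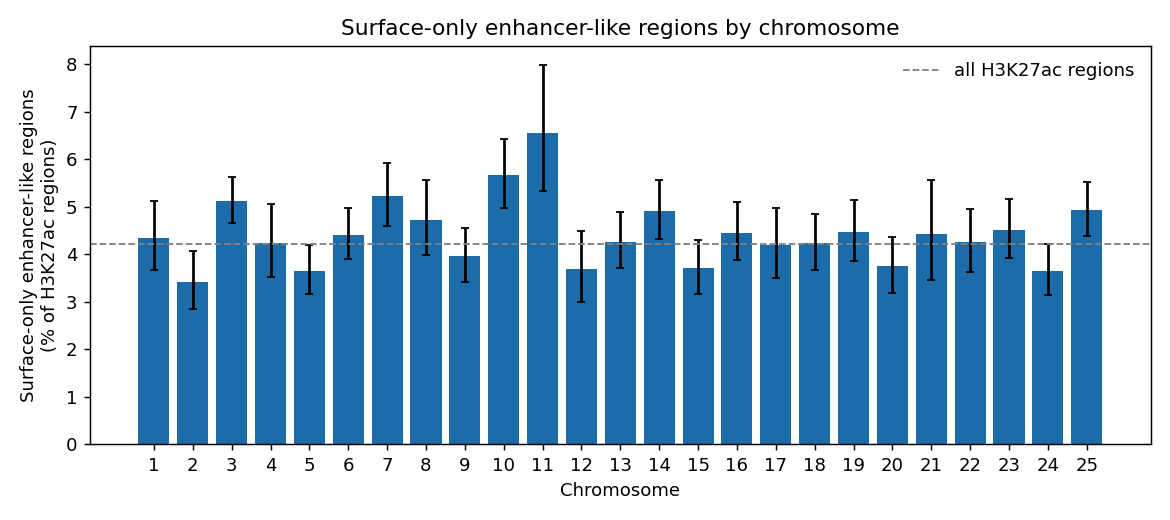
Surface-only enhancer-like regions as a share of merged H3K27ac regions (%, vertical axis) on each placed chromosome. Bars are shares, whiskers exact binomial 95% intervals, and the dashed line the share over all regions, unplaced scaffolds included (4.22%). Chromosome 11 stood highest, at 6.56%.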

How the data were processed

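Peaks were called from single-read sequencing of immunoprecipitated adult liver chromatin. Bowtie2, SAMtools, MACS2 and bcl2fastq 2.20 appear in the submitters' processing notes, without settings. How replicates were pooled, and on which genome build, no source used here says. Each of the 9 lists the authors deposited holds peak positions in bp and a score that is 0 for every peak. The 26 libraries include 6 of total chromatin, which were not analysed here. Genes were not assigned, because peaks of chromosome 1 reach 26.95 Mb while genes of that chromosome in the table reach 133.95 Mb.

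Overlap meant 1 bp or more. Peaks were merged, classed and measured in Python 3.11.15 with NumPy 2.4.6, SciPy 1.17.1 and Matplotlib 3.10.9. The merging, overlap and distance steps were tested on simulated data by counting single bases, and 0 of 10684 comparisons differed. Distances are bp between nearest ends. No test between morphs was made. The set of regions and the comparisons were chosen with earlier results of these data known. Regions named in the text are the 5 widest, the 5 clusters with the most regions (chained at 10 kb), both on placed chromosomes, and 3 on each side of the rule's edge. Alternatives were list length, merging distance, exclusion within 1 kb of other marks, and placed chromosomes only.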

Additional observations from a re-analysis of the deposited data

How the results depend on the processing

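No paired analysis was possible because each morph and mark has 1 pooled list, and for the same reason no replicate could be left out. Read depth is unknown, so whether any narrow cave peaks went unlisted cannot be told. The number of surface-only enhancer-like regions was 5945, and 2487 with the wider 50% of every list, 12172 with lists of equal length and 2719 with peaks up to 1 kb apart merged. Of the 5945, 734 overlapped such a region with the wider 50%, and all 5945 did with lists of equal length, a cut that takes narrow peaks from the cave lists alone. Pachón-only regions numbered 4445 with the wider 50% and 5228 with merging, and Tinaja-only regions 6649 and 6431, and 4031 with equal lists.

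With the wider 50%, equal lists, merging and exclusion of marks within 1 kb, in that order, the share with cave H3K27ac within 1 kb was 30.4%, 38.0%, 0% (by construction, since such peaks are merged) and 32.6%. The share with another region of the set within 10 kb was 23.2%, 56.1%, 16.1% and 34.1%, and 41.1% on placed chromosomes. The median share of H3K27ac regions over chromosomes was 3.57%, 12.3%, 2.80% and 3.08%. With the wider 50%, merging and exclusion, in that order, the share of surface-only H3K27ac regions free of other marks was 79.4%, 71.4% and 53.9%, and 79.5% on placed chromosomes. The median distance to surface H3K4me3 was 8876, 6380 and 5938 bp. The median width was 607 bp with the wider 50% and 347 bp with merging, which also left 76.3% on placed chromosomes.

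The following were chosen after the data were seen. Shared H3K27ac regions within 5 kb were longest in surface more often than those farther away by 17.6 percentage points. This difference was 20.04 with the wider 50%, 14.8 with equal lists, 22.0 in a neighbourhood of 2 kb, 15.3 in one of 10 kb and 14.3 from 1 to 5 kb. For H3K4me3 it was 6.02, and 7.55 with the wider 50%, 4.05 with equal lists and 9.16 with merging. For H3K27me3 it was 1.18 (-1.73 to 4.08, a normal 95% interval) and between 0.37 and 2.91 in the alternatives, the highest with equal lists. The causes of these shifts were not tested.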

Other observations

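Some stretches of chromosome carried marks in surface fish and none of the 3 marks in either cave. The choice left out every region that met a cave peak of any of the 3 marks. That such stretches exist around the chosen regions was therefore fixed by it. Between consecutive cave peaks of any mark, 5175 stretches held at least 1 surface-only enhancer-like region, and 105 held 3 or more, with 351 regions in all. For Pachón only, against peaks of surface and Tinaja, 179 stretches held 3 or more, and for Tinaja only, against surface and Pachón, 169 did. The most in a stretch was 6 for surface only, 8 for Pachón only and 8 for Tinaja only. The stretches named here were chosen after their values were seen. On chromosome 24, from 44574322 to 44593717, surface had 5 H3K27ac peaks, all enhancer-like, with 1 H3K4me3 and 4 H3K27me3 peaks, and the caves had none of any mark over these 19396 bp. On chromosome 2, from 14664732 to 14675574, surface had 5 H3K27ac peaks and neither of the other marks. Whether the cave reads can be placed on these stretches was not tested.

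The longest such stretches held a single surface peak. On chromosome 9, from 5529606 to 6374668, 1 surface-only enhancer-like region was the only peak of surface fish in 845063 bp without a cave peak. On chromosome 15, from 31432883 to 32057437, the same held over 624555 bp. The longest stretch of Pachón only spanned 1148495 bp, with 1 Pachón-only region and 3 Pachón H3K27me3 peaks. That of Tinaja only spanned 370652 bp. Whether reads of any morph can be placed on these long stretches was not tested. Of the 5175 stretches, 4272 held 1 surface peak of any mark, and 389 also held surface H3K4me3 or H3K27me3. For Pachón only, 6754 of 8102 stretches held 1 Pachón peak of any mark and 427 held Pachón H3K4me3 or H3K27me3. For Tinaja only, 6093 of 9231 stretches held 1 Tinaja peak of any mark and 2505 held Tinaja H3K4me3 or H3K27me3.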
